A study of Mus musculus with 12 samples.

Results

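The chemokine genes Cxcl10, Cxcl9, Cxcl16, Ccl3, Ccl4, Ccl5 and Ccl22 were followed in LPS-activated mouse B cells that were left undamaged, damaged with etoposide, or damaged after the ATM kinase had been inhibited. The genes were chosen by their symbols, with earlier results of these data known, and are 7 of the 29486 genes in the deposited table of normalized counts. Primary B cells from the spleen of young adult C57BL/6Babr mice were all cultured with LPS (10 μg/ml), and mRNA was sequenced from 4 biological replicates of each of 3 conditions. The LPS condition received nothing else (48 h of LPS). The LE condition received LPS for 48 h and then etoposide (20 μM, 4 h), a topoisomerase II poison that breaks DNA. The LEKU condition received LPS for 47 h, the ATM inhibitor KU55933 (10 μM) for 1 h, and then etoposide (20 μM, 4 h) with the inhibitor already present. The series text places RNA isolation of control cells at the same later time, but the sample labels give only the 48 h of LPS. No library came from cells without LPS or from cells given KU55933 without etoposide. The Illumina indexes of a condition were used in no other condition, so index and condition cannot be told apart.

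Chemokines are small secreted proteins that direct the movement of leukocytes through G-protein-coupled receptors. Cxcl9 and Cxcl10 are the interferon-inducible ligands of Cxcr3 and attract activated T cells and NK cells. Ccl3, Ccl4 and Ccl5 are inflammatory attractants of T cells and monocytes, Ccl22 binds Ccr4 on helper and regulatory T cells, and Cxcl16 is made as a membrane protein that binds Cxcr6. LPS reaches these genes in B cells through Tlr4, NF-kB and interferon regulatory factors, and activated B cells are known to secrete Ccl3, Ccl4 and Ccl22.

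The 7 genes lie in 4 places of the mouse genome (GRCm38, GENCODE M21). Cxcl10 (ENSMUSG00000034855) is at chr5:92346638-92348889 on the minus strand, beside Cxcl9 (chr5:92321347-92328079). Ccl5 (ENSMUSG00000035042, chr11:83525778-83530518), Ccl3 (chr11:83647844-83649355) and Ccl4 (chr11:83662584-83664683) share a cluster of CC chemokine genes. Cxcl16 is elsewhere on the same chromosome (chr11:70453983-70459984), and Ccl22 is at chr8:94745590-94751699. Promoters from RefSeq (GRCm38.p6) were matched for 4 of the 7 genes, Cxcl10, Cxcl9, Ccl3 and Ccl22. The 250 bases before the start site are printed for 3 of them, picked with their values known. Of the 7 genes, these set the one that differed most between the damaged conditions beside a near-silent neighbour and a level gene of the CC cluster. Capitals mark matches to any of 4 motifs on either strand, and the lines cover chr5:92348890-92349139, chr5:92328080-92328329 and chr11:83649379-83649628, all on the minus strand.
Cxcl10: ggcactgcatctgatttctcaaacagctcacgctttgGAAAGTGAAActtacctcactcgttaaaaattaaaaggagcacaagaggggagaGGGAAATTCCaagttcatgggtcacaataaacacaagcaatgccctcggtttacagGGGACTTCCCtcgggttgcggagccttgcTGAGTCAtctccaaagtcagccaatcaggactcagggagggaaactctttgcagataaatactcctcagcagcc
Cxcl9: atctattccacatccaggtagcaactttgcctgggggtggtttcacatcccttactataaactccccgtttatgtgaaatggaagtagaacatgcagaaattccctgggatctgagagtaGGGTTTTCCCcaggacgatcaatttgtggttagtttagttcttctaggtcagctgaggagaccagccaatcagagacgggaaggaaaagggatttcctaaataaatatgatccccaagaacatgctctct
Ccl3: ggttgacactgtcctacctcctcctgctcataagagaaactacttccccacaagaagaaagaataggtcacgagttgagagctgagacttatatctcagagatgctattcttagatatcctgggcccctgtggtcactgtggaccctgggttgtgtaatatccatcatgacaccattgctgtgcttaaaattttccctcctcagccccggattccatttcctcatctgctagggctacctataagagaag

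The motifs searched were the core of the interferon-stimulated response element (GAAANNGAAA), a form of the NF-kB site (GGGANNNNCC), the interferon-gamma activated site (TTCNNNGAA) and the AP-1 site (TGANTCA). The Cxcl10 promoter held GAAAGTGAAA from 213 to 204 bases before the start, the NF-kB form at 159 to 150 and at 103 to 94, and the AP-1 letters at 74 to 68. None of these matches overlapped another motif. The Cxcl9 promoter held the NF-kB form alone (130 to 121 bases before the start), as did that of Ccl22 (131 to 122), and none of the 4 was found in that of Ccl3. Heatr9 and Ccrl2, whose patterns are set beside that of Cxcl10 below, were searched too. Heatr9 held the AP-1 letters alone (146 to 140). A window of Ccrl2 held the NF-kB form alone, at 68 to 59 and at 56 to 47, and its other windows held no match. Whether motifs go with levels was not tested. Over the 32851 promoter windows of the same length in the table, 2.98% held the interferon core, 17.6% the NF-kB form, 7.02% the interferon-gamma site and 6.75% the AP-1 letters. A match is a description of the letters, and binding was not measured.

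The deposited values of a condition hold 1 fitted mean for each gene multiplied by a factor for each library. Within any condition the 4 columns stood in 1 fixed ratio over all genes, to within 2.8e-14 on the log2 scale. The spread between biological replicates is therefore not in the table, no test between conditions could be run, and the values below are a description. Whether the columns of 2 conditions overlap follows from the fitted means and library factors and says nothing about replicates. Column totals ranged from 20400994 to 30575195 normalized counts. Each column was divided by a size factor, and differences are given on the scale of log2(normalized count + 1). A difference of 1 on that scale, about 2-fold, takes the place of a call. Intervals are 95% exact intervals on the summed value of the 4 libraries taken as reads, and they cover counting error only. The log2 ratio of LEKU to LE had an SD over genes of 0.32 for the 8608 genes with a mean under 1, 0.63 for the 5908 with a mean from 1 to 10, 0.70 for the 4096 with a mean from 10 to 100 and 0.43 for the 10874 above. Counting error is largest at the lowest means, but the SD was smallest there. Whether the fit drew low values towards each other was not tested. Folds and counting intervals of genes with few counts carry that limit. Of the 7 chemokines, 6 reached a level of 10 in any condition, as did 15614 of all genes, and Cxcl9 did not.

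Cxcl10 mRNA was low in undamaged and damaged cells and high in damaged cells with KU55933. The deposited normalized counts of Cxcl10 were 93.1, 103, 107 and 96.8 in the LPS libraries, 80.9, 90.7, 109.9 and 87.9 in the LE libraries, and 1409, 1588, 1702 and 1730 in the LEKU libraries. By these columns Cxcl10 was high in LEKU, and the column ranges of LPS and LE overlapped. After scaling, Cxcl10 stood at 111 with LPS (counting interval 100.5 to 123), 84.6 in LE (76.2 to 93.6) and 1565 in LEKU (1527 to 1603). The level in LEKU was 18.5-fold that in LE (16.7 to 20.6) and 14.1-fold that in LPS (12.7 to 15.6). Etoposide without the inhibitor left Cxcl10 at 0.761 of its LPS level (0.659 to 0.879). Among the 15614 genes, 27.8% lay below Cxcl10 in LE and 76.4% in LEKU. Over the 11356 genes that reached a level of 100 in any condition, its difference between LEKU and LE was the 2nd highest.

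Ccl5 differed in the same comparison by a smaller factor. This attractant of T cells and monocytes had deposited values of 227, 252, 262 and 236 in the LPS libraries, 217, 243, 295 and 236 in the LE libraries, and 1151, 1298, 1390 and 1413 in the LEKU libraries. LEKU was again the high condition, and the column ranges of LPS and LE overlapped. Scaled levels of Ccl5 were 271 in LPS, 227 in LE and 1278 in LEKU, which was 5.64-fold the LE level (5.26 to 6.04) and 4.71-fold the LPS level (4.40 to 5.05). Its difference between LEKU and LE ranked 7th of the 11356 genes. Between LE and LPS it differed by -0.26 on the log2 scale, near the -0.39 of Cxcl10.

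**Figure D1:**
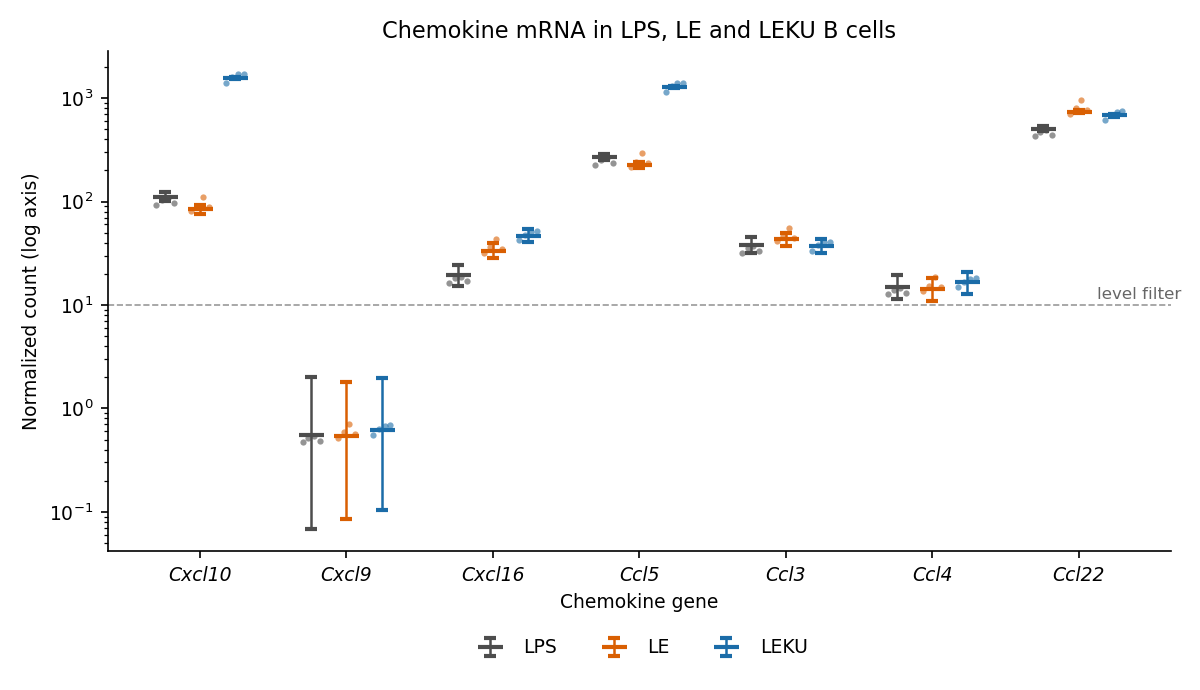
Normalized count of each chemokine gene (log axis) in LPS, LE and LEKU B cells. Points are the 4 deposited library values, horizontal marks the scaled condition level with its 95% counting interval, and the dashed line the level of 10 used as a filter. Cxcl10 and Ccl5 stand at 1565 and 1278 in LEKU against 84.6 and 227 in LE. Ccl22, Ccl3 and Ccl4 stay within 2-fold and Cxcl9 stays under 1.

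Ccl22 stayed within 2-fold in all 3 comparisons. Its deposited values were 426 to 492 in the LPS libraries, 710 to 964 in the LE libraries and 613 to 753 in the LEKU libraries. The column ranges of LE and LEKU overlapped, above those of LPS. After scaling, Ccl22 was 508 in LPS, 742 in LE and 681 in LEKU, 1.46-fold higher in LE than in LPS (1.38 to 1.55) and 0.919 of the LE level in LEKU (0.873 to 0.967). Neither difference reached 2-fold.

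Cxcl16 was higher at each step, at a low level throughout. Its deposited values were 16.3 to 18.8 in the LPS libraries, 32.1 to 43.6 in the LE libraries and 42.1 to 51.7 in the LEKU libraries, where the ranges of the last 2 conditions overlapped. Scaled levels were 19.5, 33.6 and 46.7, and LEKU was 2.40-fold LPS (1.82 to 3.20), a log2 difference of 1.22. With quantile normalization that difference was 0.82 and no longer reached 2-fold. The exons of Cxcl16 share 552 bases with those of Zmynd15, a gene on the opposite strand. Zmynd15, named after its values were seen, stood at 7.76, 22.8 and 33.9 in LPS, LE and LEKU. The libraries were made with a stranded kit, but the strand setting used for counting is not given in the sources used here. How reads in these shared bases were assigned to Cxcl16 or Zmynd15 is therefore not known. The shared exonic bases of Cxcl10 and Art3, on the opposite strand, number 133, and Art3 reached at most 7.67.

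Ccl3 and Ccl4, the macrophage inflammatory proteins, differed between conditions by at most 0.21 on the log2 scale. With quantile normalization Ccl3 stood at -0.32 and Ccl4 at -0.67 in LE against LPS, where Ccl3 had stood at 0.17 and Ccl4 at -0.08. Ccl3 had deposited values of 32.0 to 36.9 in the LPS libraries, 41.2 to 56.0 in the LE libraries and 33.5 to 41.1 in the LEKU libraries. Its scaled levels were 38.2, 43.1 and 37.2. The LEKU level was 0.863 of the LE level, with a counting interval of 0.692 to 1.07. Ccl4 had deposited values of 12.6 to 14.6, 13.6 to 18.5 and 14.9 to 18.3 in the same order. Its scaled levels were 15.1, 14.2 and 16.5, and LEKU was 1.16-fold LE (0.811 to 1.66), an interval that holds both no difference and a level 1.66-fold higher.

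Cxcl9 was close to silent in all 12 libraries. Its deposited values lay between 0.469 and 0.709, and the sum over the 4 libraries of a condition was 2.02 in LPS, 2.38 in LE and 2.54 in LEKU. These sums are under 3 counts, and no fold is given. Cxcl9 and Cxcl10 bind the same receptor and are neighbours on chromosome 5, and their values were far apart in every condition.

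Against all genes, the chemokines were described by the 2-fold rule. In LEKU against LE, 2 of the 6 chemokines that passed the level filter were past 2-fold higher (Cxcl10 and Ccl5) and 0 were past it lower. Of all 15614 genes, 1.71% were past 2-fold higher and 4.69% lower in that comparison. The median difference over the 6 was 0.33, beside -0.05 over all genes. In LEKU against LPS, 3 of the 6 were past 2-fold higher (Cxcl10, Ccl5 and Cxcl16) and 0 lower, where 11.9% of all genes were higher and 5.36% lower. In LE against LPS, 0 of the 6 passed 2-fold in either direction, where 15.1% of all genes were higher and 5.17% lower. Their differences with etoposide alone ran from -0.39 for Cxcl10 to 0.75 for Cxcl16, with a median of 0.05 beside 0.04 over all genes. Both comparisons of LEKU use the same LEKU libraries and were not set against each other. The genes were picked with such values known, so the counts describe them and carry no weight as evidence about chemokines as a family.

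**Figure D2:**
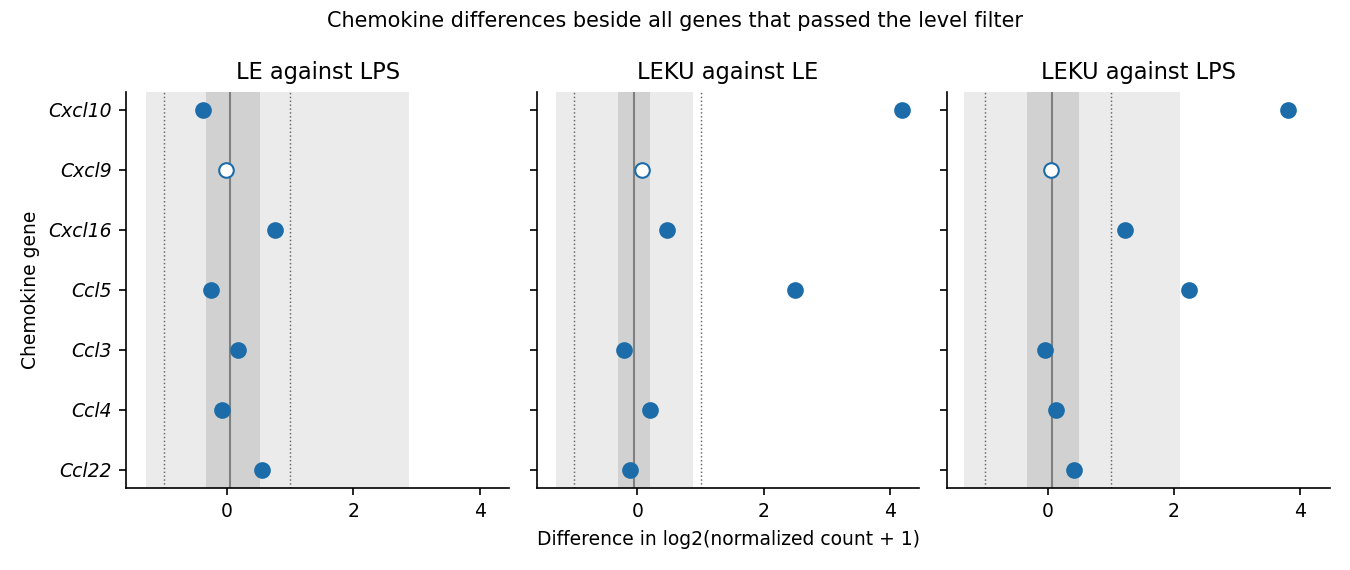
Difference in log2(normalized count + 1) for each chemokine gene (points; the open point is Cxcl9, which did not pass the level filter) in LE against LPS, LEKU against LE and LEKU against LPS. Dark and light bands hold the middle 50% and 95% of the 15614 genes, the grey line is their median, and dotted lines mark 2-fold. Cxcl10 at 4.19 and Ccl5 at 2.49 lie beyond the bands in LEKU against LE.

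Per kilobase of exon, the order of the chemokines changed between conditions. With LPS the highest level was that of Ccl5 (282 normalized counts per kilobase), followed by Ccl22 (219), Ccl3 (49.8), Cxcl10 (49.3), Ccl4 (22.8), Cxcl16 (6.45) and Cxcl9 (0.185). The counting intervals of Ccl3 and Cxcl10 overlapped, and those of the other neighbours in this order did not. In LE the order was Ccl22 (319), Ccl5 (236), Ccl3 (56.2), Cxcl10 (37.6), Ccl4 (21.6), Cxcl16 (11.1) and Cxcl9 (0.181). In LEKU it was Ccl5 (1331), Cxcl10 (695), Ccl22 (293), Ccl3 (48.5), Ccl4 (25.03), Cxcl16 (15.5) and Cxcl9 (0.205). In LE and in LEKU no neighbours in the order had overlapping counting intervals. With these lengths Cxcl10 went from the fourth place in LPS and in LE to the second in LEKU, where it stood above Ccl22. The length of a gene joins the exons of all its annotated transcripts. For Cxcl10 these cover the gene from its first base to its last (2252 bases), so introns are counted as exon. Its values per kilobase may therefore be too low, and its places and the overlap with Ccl3 depend on that length.

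The genes around Cxcl10 and Ccl5 were followed in the same comparison. Around Cxcl10, 4 protein-coding neighbours had a start site within 150 kb and a level of at least 10. Of these 4, 0 were past 2-fold higher in LEKU than in LE, where 1.71% of all genes were. With so low a share, the 0 of 4 says little about these neighbours. Cxcl11, the remaining interferon-inducible Cxcr3 ligand, has its start site 16.6 kb from that of Cxcl10 and stood at 1.00, 1.29 and 2.18 in LPS, LE and LEKU (named after its values were seen). Around Ccl5, 1 of 4 such neighbours was past 2-fold higher. It was Heatr9, which encodes a protein with HEAT repeats and whose start site is 8.34 kb from that of Ccl5. Heatr9 stood at 13.6 in LPS, 13.4 in LE and 263 in LEKU, 19.7-fold the LE level and a log2 difference of 4.20. It lies on the same strand as Ccl5, 3.60 kb past the end of that gene in the direction of transcription. Reads that run on from Ccl5 cannot be told apart from Heatr9 transcripts in counts per gene. Ccl9 (6.24, 8.52 and 8.01) and Ccl6 (2.77, 2.54 and 2.20), 48.1 and 62.6 kb away on the other side, stayed below 10, and Ccl3 and Ccl4 lie beyond them.

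**Figure D3:**
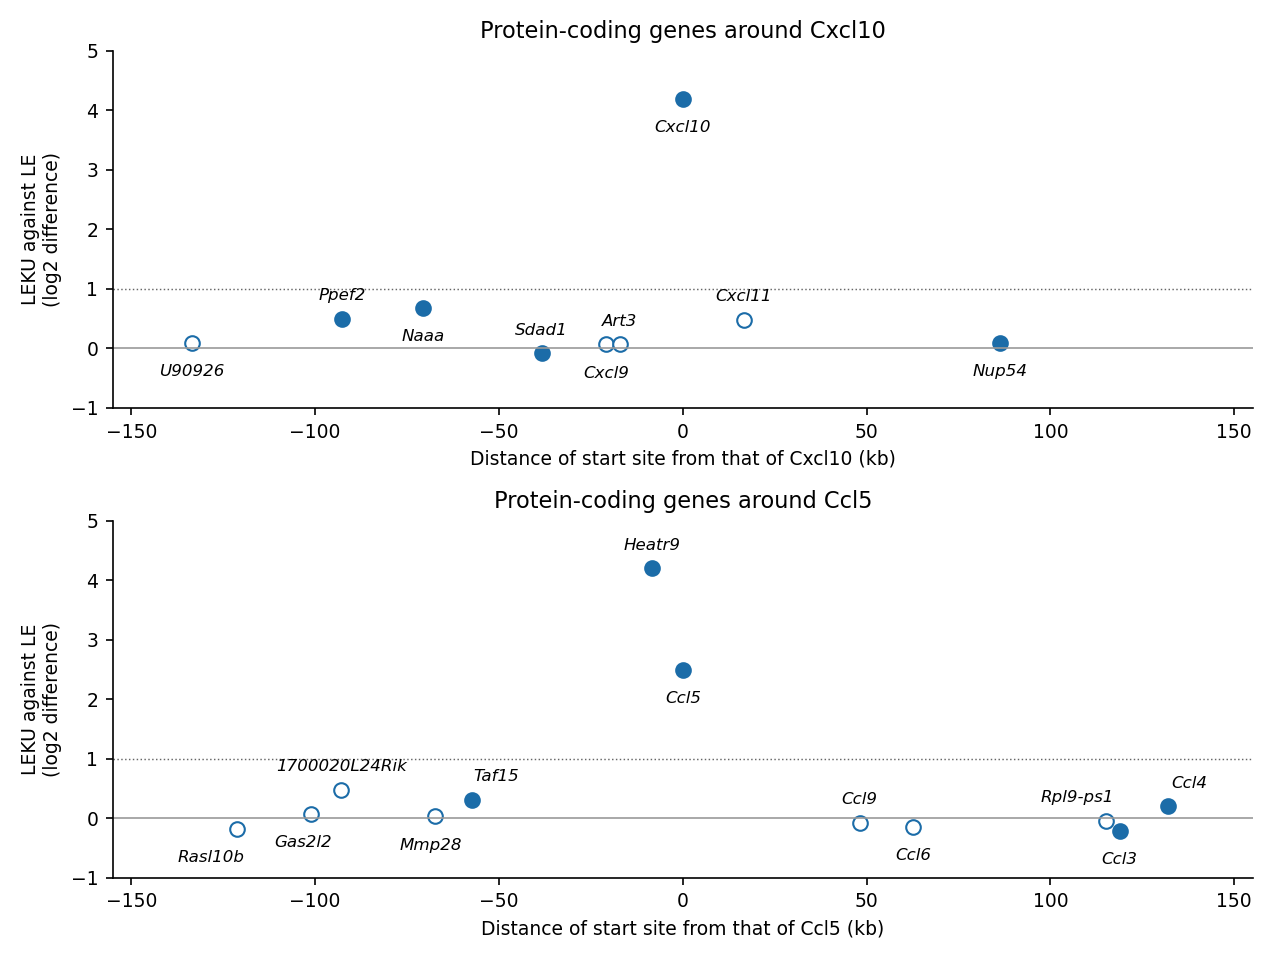
LEKU against LE as a difference in log2(normalized count + 1) for protein-coding genes with a start site within 150 kb of that of Cxcl10 (top) or Ccl5 (bottom), by distance in kb. Filled points reached a level of 10 in any condition, and the dotted line marks 2-fold. Besides Cxcl10 (4.19) and Ccl5 (2.49), only Heatr9 (4.20) lies above the line in these windows.

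The patterns most like that of Cxcl10 were sought among the 11356 genes that reached 100, by the root mean square difference of the 3 centred log2 levels. Heatr9 was nearest (0.17), followed by Mt2 (0.69), Ccrl2 (0.75), Slc1a1 (0.76) and Ccl5 (0.77). The likeness rests on 3 condition levels and is a description. Mt2, a zinc-binding metallothionein, stood at 60.9, 52.0 and 332 in LPS, LE and LEKU. Slc1a1, a glutamate and cysteine transporter, stood at 14.4, 26.8 and 142. Ccl5 and Mt2 had their lowest level in LE, as Cxcl10 did, whereas Ccrl2 and Slc1a1 were higher in LE than in LPS.

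**Figure D4:**
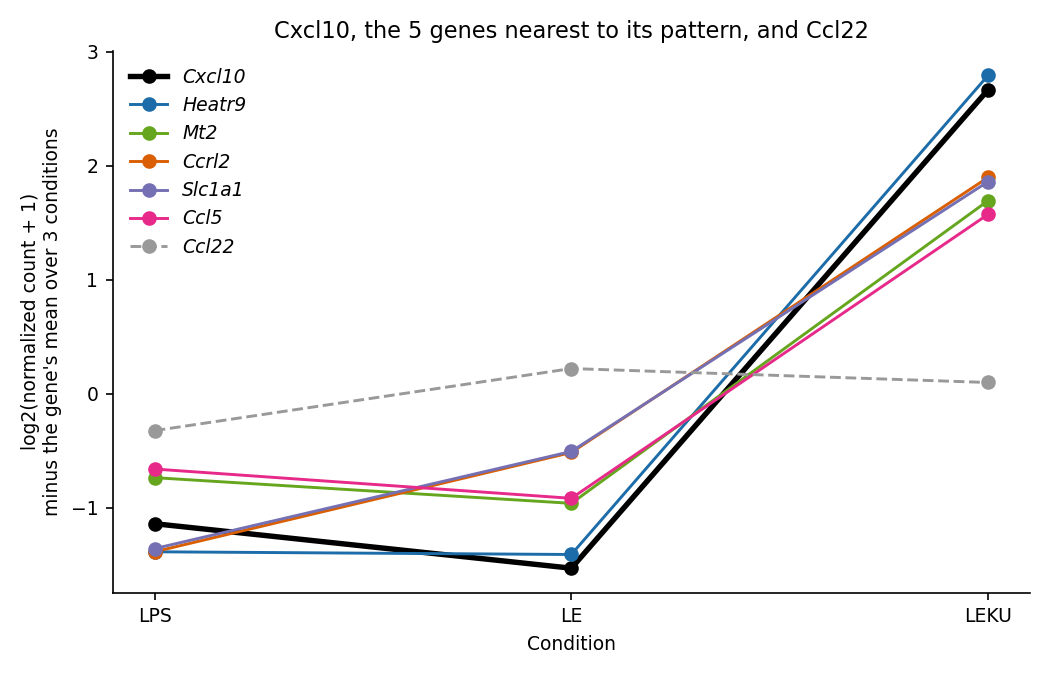
log2(normalized count + 1) minus the mean of the gene over LPS, LE and LEKU, for Cxcl10 (thick line), the 5 genes nearest to it and, for contrast, Ccl22 (dashed). The 6 solid lines are highest in LEKU, with the line of Heatr9 closest to that of Cxcl10 (root mean square difference 0.17), and that of Ccl22 is nearly level from LE to LEKU.

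Of the other chemokine genes, few passed the level filter. Of 13 other CC chemokines in the table, 3 passed the level filter, and of 13 other CXC, XC and CX3C chemokines, 3 passed. Ccl25, a ligand of Ccr9 best known from thymus and small intestine, was the one that reached 100, at 117 in LPS, 239 in LE and 190 in LEKU, just past 2-fold in LE against LPS (log2 difference 1.02). In LEKU against LE, 1 of the 6 was past 2-fold higher, beside 1.71% of all genes. It was Ccl28, a mucosal chemokine named after its values were seen, at 6.55 in LE and 14.7 in LEKU, and with a pseudocount of 5 its difference of 1.06 became 0.77 and was no longer past 2-fold. Cxcl2, a neutrophil attractant also named after its values were seen, was the one of these 6 past 2-fold in LEKU against LPS (5.40 and 21.4), and it was past 2-fold in LE against LPS too (12.8 in LE). With a pseudocount of 5 the latter difference went from 1.11 to 0.77 and the former from 1.81 to 1.34. Of all genes, 11.9% were past 2-fold higher in LEKU against LPS and 15.1% in LE against LPS. Ccl8, Ccl11, Ccl12, Ccl26 and Xcl1 were not analysed here.

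The receptor genes were followed in the same libraries, with levels not set against each other because they are not scaled to length. Of 17 chemokine receptor genes, 10 passed the level filter. In LEKU against LE 1 of the 10 was past 2-fold higher and 0 were lower, with a median of 0.23 beside -0.05 over all genes, of which 1.71% were higher and 4.69% lower. It was Ccr7, which guides lymphocytes to T cell zones, at 4822, 4214 and 10784 in LPS, LE and LEKU. The difference of Ccr7 between LEKU and LE ranked 64th among the 11356 genes. In LE against LPS 0 of the 10 were higher and 2 lower, Ccr6 (1984 and 830), the receptor of Ccl20, and Ccr1 (21.9 and 6.21). Ccr1 was named after its values were seen. Of all genes, 15.1% were higher and 5.17% lower in that comparison. Cxcr4, the receptor of Cxcl12, was higher at each step, at 714, 1119 and 1624. In LEKU against LPS 2 of the 10 were past 2-fold higher, Cxcr4 and Ccr7, and 2 lower, Ccr1 and Cxcr3. Of all genes, 11.9% were higher and 5.36% lower in that comparison. Cxcr5, the follicle homing receptor, stood at 8956, 10120 and 12397, and Ccr9 was near 100 throughout (102, 90.0 and 103).

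The receptors of Cxcl10, Ccl22 and Cxcl16 themselves, chosen after their values were seen, had few counts. Cxcr3, the receptor of Cxcl9 and Cxcl10, stood at 14.5 in LPS, 8.48 in LE and 5.17 in LEKU, 0.356 of the LPS level in LEKU (0.204 to 0.599). Ccr4 stood at 1.70, 2.43 and 2.63, and Cxcr6 at 10.5, 6.78 and 6.55. Against LE, the LEKU level of Cxcr3 was 0.609, with a counting interval of 0.340 to 1.07 that holds no difference.

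Among the 5 atypical receptors, which bind chemokines without the usual G-protein signal, 4 passed the level filter. In LEKU against LE 1 of the 4 was past 2-fold higher (Ccrl2) and 1 lower (Ackr4), beside 1.71% and 4.69% of all genes. In LE against LPS 1 was higher (Ackr4) and 1 lower (Ackr2), beside 15.1% and 5.17%. Ackr4, named after its values were seen, stood at 20.0 in LPS, 57.2 in LE and 26.8 in LEKU. Ccrl2, which presents the attractant chemerin, had deposited values of 224, 249, 259 and 233 in the LPS libraries, 469, 525, 636 and 509 in the LE libraries and 2349, 2648, 2837 and 2884 in the LEKU libraries. Its columns were lowest in LPS and highest in LEKU. Scaled levels were 267, 490 and 2609, and LEKU was 5.33-fold LE (5.09 to 5.58), the 9th highest difference of the 11356 genes. Ackr2, a scavenger of inflammatory CC chemokines that include Ccl3, Ccl4, Ccl5 and Ccl22, stood at 302 in LPS, 47.8 in LE and 27.6 in LEKU. Its log2 difference of -0.77 in LEKU against LE did not reach 2-fold. Ackr3, the scavenger of Cxcl12, stood at 199, 174 and 130.

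**Figure D5:**
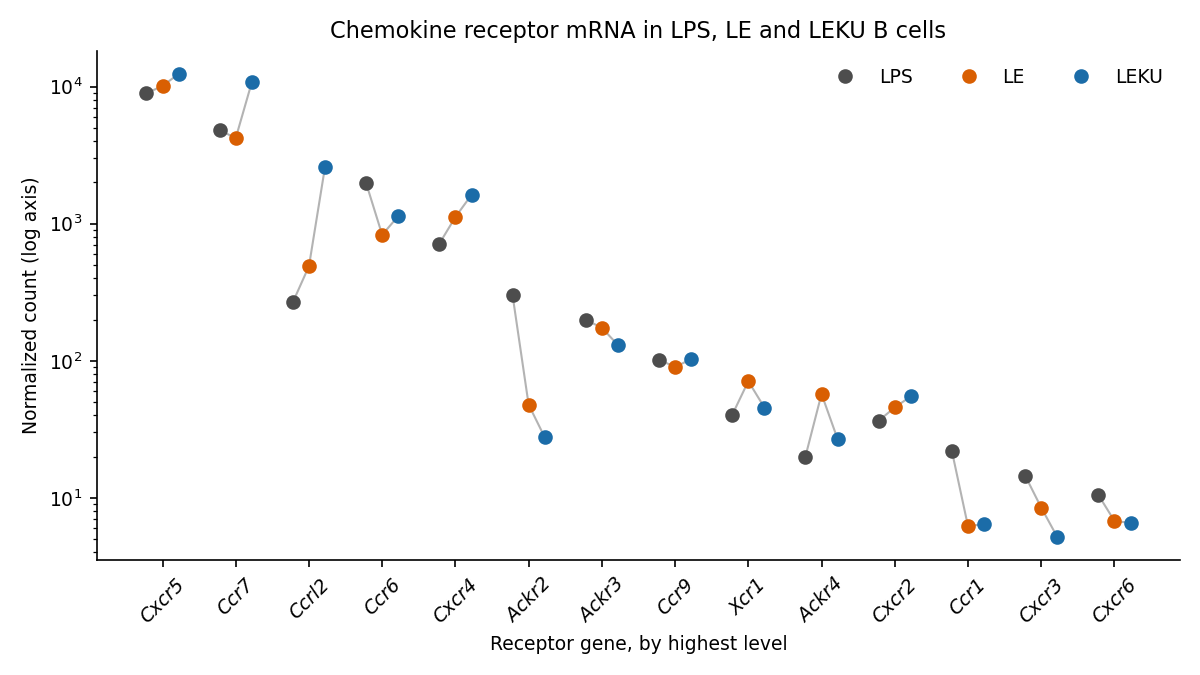
Normalized count (log axis) of the 14 chemokine receptor and atypical receptor genes that passed the level filter, in LPS, LE and LEKU B cells, ordered by highest count and not scaled to length. Ccrl2 reaches 2609 in LEKU from 490 in LE, Ccr7 reaches 10784 from 4214, Ackr2 lies at 302 in LPS and 27.6 in LEKU, and Cxcr3 lies at 14.5, 8.48 and 5.17.

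Interferon and JAK-STAT genes, some of whose products bind interferon response elements, were measured beside Cxcl10. Of 19 genes in the list, 17 passed the level filter, and 0 of the 17 were past 2-fold in either direction in LEKU against LE, where 1.71% of all genes were higher and 4.69% lower. Their median difference was 0.16, beside -0.05 over all genes. Irf7, an interferon regulatory factor downstream of Toll-like receptors, stood at 2815 in LPS, 2884 in LE and 5438 in LEKU, a log2 difference of 0.91 in LEKU against LE. Stat2, a subunit of the complex that binds the element, stood at 6197, 2870 and 5593, differing by 0.96 in LEKU against LE. Both differences lay above 0.88, the upper bound of the middle 95% of all genes. Irf9, the DNA-binding subunit, differed by 0.19 (4593 and 5247). In LE against LPS 1 of the 17 was past 2-fold higher, the inhibitor Socs1 (60.9 and 232), and 3 were lower, beside 15.1% and 5.17% of all genes. These were Jak1, a kinase of the interferon receptors (11597 and 5105), Stat2, and Irf8, a regulator of B cell and myeloid genes (13308 and 3508). Ifnb1, the gene of interferon beta, was named after its values were seen and stood at 1.13, 2.04 and 5.84. The fold between LEKU and LE was 2.86 with a counting interval of 1.28 to 7.03. Ifng was under 1 in every condition.

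The genes that carry the LPS signal were present in all conditions. Of 23 TLR4 and NF-kB genes, 23 passed the level filter. In LEKU against LE 0 were past 2-fold higher and 1 was lower, where 1.71% of all genes were higher and 4.69% lower, and the median was 0.06 beside -0.05 over all genes. That gene was Cd180, a homologue of Tlr4 on B cells, at 3413 in LPS, 1102 in LE and 367 in LEKU. Tlr4 stood at 373, 287 and 185, just past 2-fold lower in LEKU than in LPS (log2 difference -1.01). Ikbke, a kinase that activates interferon regulatory factors, was highest in LE, at 1198, 5511 and 3201. Nfkb1 was lower in LE than in LPS (12420 and 5877) and stayed there in LEKU (6169). Nfkb2 (6260, 9031 and 9862) and the inhibitor Nfkbia (7033, 8539 and 8872) stayed within 2-fold.

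Genes that act on chemokine mRNA or protein stayed within 2-fold between LE and LEKU, where 1.71% of all genes were higher and 4.69% lower. Of 5 genes for the decay of AU-rich and stem-loop mRNAs, 5 passed the filter and 0 were past 2-fold in any comparison. Of all genes, 15.1% were higher and 5.17% lower in LE against LPS, and 11.9% and 5.36% in LEKU against LPS. Zfp36l1, which binds AU-rich elements, stood at 2437, 2732 and 3337, and Zc3h12a, an RNase that cuts stem-loops, at 2174, 3289 and 3267. Of 3 proteases, 3 passed and 0 were past 2-fold in LEKU against LE. Dpp4, which trims the ends of Cxcl10, Ccl5 and Ccl22, stood at 4201, 1762 and 2406 and was past 2-fold lower in LE against LPS. Adam10 (3188, 2837 and 2290) and Adam17 (3197, 3383 and 3041), which shed Cxcl16 from the membrane, stayed within 2-fold.

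The action of etoposide was checked on 4 p53 target genes, chosen with earlier results of these data known. In LE against LPS 4 of the 4 were past 2-fold higher, beside 15.1% of all genes. Cdkn1a stood at 402 in LPS, 13655 in LE and 10871 in LEKU. Mdm2 (2563, 16920 and 9585), Sesn2 (1196, 8613 and 5748) and Bbc3 (481, 2172 and 2763) were also high in both damaged conditions. None of the 4 had the pattern of Cxcl10, and with KU55933 they differed from LE by -0.82 to 0.35 on the log2 scale.

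The cells had been purified with a B cell isolation kit and expressed B cell markers, and markers of other cell types were checked because macrophages and dendritic cells make these chemokines in quantity. The 6 B cell markers were between 898 and 30592 in every condition. In LE against LPS 2 of the 6, Pax5 (5408 and 1139) and Ebf1 (4393 and 954), were past 2-fold lower, beside 5.17% of all genes. In LEKU against LPS 3 of the 6 were, beside 5.36% of all genes. These were Pax5, Ebf1 and Ms4a1 (30592 in LPS and 13455 in LEKU). The summed level of 7 macrophage and monocyte markers was 409 in LPS, 477 in LE and 436 in LEKU, and its members differed in opposite directions. Of the 6 that passed the filter, 0 were past 2-fold in LEKU against LE, 3 were higher in LE against LPS and 2 in LEKU against LPS, with 0 lower. Over all genes, 1.71%, 15.1% and 11.9% were higher in these comparisons, in the same order, and 4.69%, 5.17% and 5.36% lower. Cd14 stood at 5.05, 24.6 and 40.9, Csf1r at 4.08, 10.5 and 9.79, Cd68 at 102, 215 and 177, and Itgam at 215, 131 and 116 in LPS, LE and LEKU. Adgre1 (47.8, 45.9 and 39.8), Lyz2 (33.5, 48.8 and 51.6) and Fcgr1 (1.74 to 1.98) stayed within 2-fold. The summed level of 7 dendritic cell markers was 2904, 1952 and 3443. Most of it was Flt3 (2733, 1677 and 2966), and 4 of the 7 passed the filter. Zbtb46 stood at 101, 184 and 410, the 1 of these 4 past 2-fold in LEKU against LE. Xcr1 (40.2, 70.9 and 45.6) was lower in LEKU than in LE, and Batf3 stood at 24.2, 12.8 and 14.8. Itgax was at 3.90 to 5.25, and Clec9a and Siglech were under 1 in every condition. Summed levels were 425, 322 and 286 for 7 T cell markers (of which Lck gave 414, 299 and 271), 24.6, 33.2 and 28.2 for 5 NK cell markers, and 2.12, 15.2 and 4.45 for 4 granulocyte markers. The part of other cells in the Cxcl10 and Ccl5 levels was not tested. In bulk RNA, more cells with a transcript and more transcript per cell cannot be told apart.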

How the data were processed

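Total mRNA was sequenced in 12 libraries (poly(A) selection, single-end reads). The authors trimmed reads with Trim Galore and cutadapt 1.2.1, mapped them with TopHat2 2.0.12 to GRCm38, counted reads per Ensembl gene (HTSeq), and ran DESeq2 1.6.3 for the fit. The deposited table of normalized counts gives a signal per gene and library that is a fitted mean of the condition times a library factor. The 3 deposited tables of the authors' comparisons hold fold changes with their errors and p-values and were not used.

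Size factors were medians of ratios over the 13712 genes with a value of at least 10 in every library. The level of a condition was the mean of its scaled columns. Genes with a level of at least 10 in any condition entered the counts. Differences used a pseudocount of 1. A limma test was planned, but fitted means give it no replicates to work on, so none was run. Intervals were exact Poisson or conditional binomial intervals at 95%. Functions were tested on simulated data. Promoter windows came from RefSeq and gene models from GENCODE M21. Computation used Python 3.11.15 with pandas 2.3.3, numpy 2.4.6, scipy 1.17.1 and, for figures, matplotlib 3.10.9.

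The chemokines, lists and tests were chosen with earlier results of these data known. Named genes were the 7 chemokines, the genes of each list past 2-fold in any comparison with a level of at least 100, the 2 highest of the others at 100 or more in each list, the 5 genes nearest to Cxcl10, and Cdkn1a. Alternatives were other scalings, pseudocounts of 0.5 and 5, and other level filters. A receptor gene and a marker gene are not reported here and were left out of their lists.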

Additional observations from a re-analysis of the deposited data

How the results depend on the processing

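Over 7 alternative scalings and pseudocounts, Cxcl10 and Ccl5 stayed past 2-fold higher in LEKU against LE (log2 differences of 4.13 to 4.41 and 2.47 to 2.56 over all settings) and in LEKU against LPS (3.64 to 3.93 and 2.13 to 2.36). Quantile normalization gave Cxcl10 -0.77 in LE against LPS, 4.41 in LEKU against LE and 3.64 in LEKU against LPS. In LE against LPS it gave Cxcl16 0.19, Ccl3 -0.32, Ccl4 -0.67 and Ccl5 -0.42. It also took Cxcl16 below 2-fold in LEKU against LPS (0.82). The sign of Ccl3 changed over the settings in LE against LPS (-0.32 to 0.24) and in LEKU against LPS (-0.36 to 0.09), as did that of Ccl4 in LEKU against LPS (-0.28 to 0.24) and that of Cxcl9, under 3 counts, in both (-0.12 to 0.01 and -0.02 to 0.10). With library totals, LEKU against LPS was 2.36 for Ccl5 and 0.55 for Ccl22. With the median of ratios over all listed genes, added after the data were seen, LE against LPS was -0.40 for Ccl5 and 0.40 for Ccl22, and LEKU against LPS was 2.13 for Ccl5 and 0.32 for Ccl22. The median of all genes moved by 0.13 with library totals in LEKU against LPS, by -0.14 in LE against LPS and -0.11 in LEKU against LPS with the ratios over all listed genes, and by -0.12 with quantile normalization in LE against LPS.

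The number of all genes past 2-fold changed with the level filter, which changes how many genes enter. With at least 50 in any condition it was 1459 higher in LE against LPS (2356 in the report), 424 lower in LEKU against LE (732) and 1193 higher in LEKU against LPS (1865). With at least 10 in every condition these were 1449, 333 and 1157. With the ratios over all listed genes, 2037 were higher and 1159 lower in LE against LPS, beside 2356 and 808. The 8 lists of other chemokines, receptors, signalling, decay and protease genes leave out the 7 chemokines. In the order reported above, 3, 3, 10, 4, 17, 23, 5 and 3 of their genes passed the level filter. Over these lists the number past 2-fold higher in LE against LPS was 5, where 15.1% of all genes were higher. It was 3 with a pseudocount of 5 and with the ratios over all listed genes. The number lower in LEKU against LE was 2, where 4.69% of all genes were lower, and 1 with a pseudocount of 5.

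No paired analysis was possible because the 4 columns of a condition hold 1 fitted mean, and leaving out a replicate could not be run for the same reason. Depth limits Cxcl9, Cxcl11 and Ifnb1, with at most 23.97 counts over the 4 libraries of any condition. The spread between replicates is unknown here for every gene, so counting intervals are lower limits of the error.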
